A study of Mus musculus with 20 samples.

Results

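Genes of the Notch pathway were described in the preimplantation mouse uterus, namely the receptors Notch1, Notch2 and Notch3, the ligands Jag1, Jag2 and Dll4, and the targets Hes1, Hey1, Hey2 and Heyl. These 10 genes were picked by symbol, with earlier results of these data known, out of 45777 genes in the table, and all 10 were above 0 TPM in every library and were tested. The samples were uteri of 20 wild-type B6D2F1 mice, 8 to 12 weeks old, which were taken in the evening of day 3.5 of pregnancy, counted from the plug at day 0.5, with 5 mice per group. Control mice received no treatment. IF mice (implantation failure model) received low-dose RU486 (mifepristone, an antagonist of the progesterone and glucocorticoid receptors) under the skin on the morning of day 3.5. PBMC mice received RU486 and, on day 1.5, peripheral blood mononuclear cells (PBMCs, from non-pregnant female mice) cultured without hCG (human chorionic gonadotropin) in the uterine cavity, and PBMC-hCG mice received RU486 and cells that had been cultured with hCG. RU486 was therefore shared by the 3 groups other than control, no group received PBMCs without RU486, and the tissue, labelled uterus, also held muscle, as the markers given below show. Whether donor cells were still present was not tested. The study also had RU486 mice given medium with hCG but no cells, and none of them is among these samples.

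Notch receptors are proteins of the cell surface that are cut after a ligand on a neighbouring cell binds them. The freed inner part enters the nucleus, where it joins the DNA-binding protein RBPJ and switches on genes for repressors of the HES and HEY families. In the uterus the pathway is known for its work in blood vessels, in which Dll4 and Jag1 guide sprouting and Notch3 marks the muscle and pericytes of the vessel wall, and for a part in the change of stromal cells into decidua.

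Members were placed on the mouse genome GRCm38 by their NCBI gene identifiers, and all are protein-coding. Notch1 lies on chromosome 2 from 26457902 to 26503822, Jag1 on chromosome 2 from 137081451 to 137116520 and Dll4 on chromosome 2 from 119325784 to 119335666. Notch2 lies on chromosome 3 from 98013538 to 98150367, and Hey1 on the same chromosome from 8663359 to 8667038. Notch3 is on chromosome 17 from 32120820 to 32166896, Jag2 on chromosome 12 from 112907803 to 112929812, and Hes1 on chromosome 16 from 30065357 to 30067796. Hey2 is on chromosome 10 from 30832359 to 30842783 and Heyl on chromosome 4 from 123233556 to 123249870.

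Promoters, each running from 250 bases before a transcript start to 50 bases after it, were taken from RefSeq (GRCm38.p6) for the 7 members listed there, which are all but Hes1, Hey1 and Heyl. The start used was that of the gene in 5 of the 7, and it lay 6 bases inside the gene for Notch3 and 317 bases inside for Jag2, so the Jag2 window does not reach the gene's outer start. They were searched on both strands for the core of the RBPJ motif (TGGGAA, or TTCCCA on the other strand), for the N-box that HES proteins bind (CACNAG, or CTNGTG) and for the E-box CACGTG that HEY proteins bind. The RBPJ core was found in 1 of the 7, that of Hey2, and in 25.6% of all 32851 promoters of this length. The N-box was found in 4 of the 7 (Notch1, Notch2, Notch3 and Dll4) and in 42.5% of all promoters, and the E-box in 0 of the 7 and in 7.15% of all promoters. A match is a run of letters and no evidence of binding. Of these, 2 promoters on the minus strand are shown 5′ to 3′, with matches in capitals. Hey2 (chr10:30842734-30843033) is shown for its 2 RBPJ cores, which begin 207 and 3 bases before the start. Notch1 (chr2:26503773-26504072), a receptor that was higher in all groups given RU486, is shown for its N-boxes, which begin 108, 3 and 1 bases before the start, the last 2 overlapping.
Hey2: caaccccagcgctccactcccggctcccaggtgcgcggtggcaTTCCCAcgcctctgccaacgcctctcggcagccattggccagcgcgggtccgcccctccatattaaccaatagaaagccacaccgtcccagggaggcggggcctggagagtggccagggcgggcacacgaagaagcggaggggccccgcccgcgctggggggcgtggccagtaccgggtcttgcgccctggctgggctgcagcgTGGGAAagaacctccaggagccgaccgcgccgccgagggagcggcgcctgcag
Notch1: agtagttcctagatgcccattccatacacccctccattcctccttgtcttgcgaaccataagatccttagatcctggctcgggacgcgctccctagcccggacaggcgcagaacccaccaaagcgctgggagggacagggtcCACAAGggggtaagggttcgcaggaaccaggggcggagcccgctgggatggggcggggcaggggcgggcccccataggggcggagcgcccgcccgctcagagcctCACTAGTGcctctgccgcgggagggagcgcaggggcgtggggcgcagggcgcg

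Levels are given in TPM, a share of all transcripts that is scaled for gene length and can be compared between genes. Over the 20 mice the mean level was highest for Hes1 (43.9 TPM), followed by Notch3 (29.3), Heyl (22.7), Notch1 (21.3), Jag1 (20.8), Jag2 (18.8), Notch2 (18.7), Dll4 (17.6) and Hey1 (17.2), and it was lowest for Hey2 (5.79). Neighbours in this order overlapped in range, except that the lowest Hey1 value (9.998 TPM) was above the highest Hey2 value (6.97 TPM). The ratio of the highest to the lowest mouse was smallest for Hey2 (1.58) and largest for Notch3 (3.61).

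The libraries summed to 999989 to 999999 TPM, so the number of reads behind a value is unknown and no counting error can be given. Correlations between mice of a group lay between 0.961 and 0.992, and no columns were identical. Summed gland markers (Foxa2, Cxcl15 and Prss29) set 5 libraries apart. The sum is almost all Prss29, which ran from 329 to 13969 TPM over the libraries. Foxa2 reached at most 15.4 TPM and Cxcl15 at most 19.9 TPM, so the split rests on 1 gene. The sums were 13978 and 3419 TPM in control replicates 2 and 5, against 358 to 547 TPM in the other 3 control mice, 5840 and 3108 TPM in IF replicates 3 and 5, against 1035 to 1292 TPM in the other 3 IF mice, and 4646 TPM in PBMC-hCG replicate 4, against 1034 to 1776 TPM in the rest of its group. The PBMC mice had 504 to 1395 TPM. Control replicates 2 and 5 also held the lowest control values of Notch1, Notch3, Jag2 and Heyl. Counts of calls, and the members, are therefore also given without control replicates 2 and 5, and where it ends a call without IF replicates 3 and 5 and PBMC-hCG replicate 4, both chosen after the data had been seen. In the second, the comparisons without PBMC-hCG mice are described as without IF replicates 3 and 5, since the third mouse enters them only through the shared estimate of the spread. Markers of the uterus (Hoxa10, Hoxa11, Pgr, Esr1 and Wt1) were present in every library, summing to between 579 and 735 TPM. The sum hides opposite shifts, since in IF against control mice 2 of these 5 were called higher and 2 lower. Mean Pgr, for example, was 45.9 TPM in control and 150 TPM in IF mice, and mean Hoxa11 was 213 and 101 TPM. The labels name no batch, and whether mice were handled in batches is unknown.

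**Figure D1:**
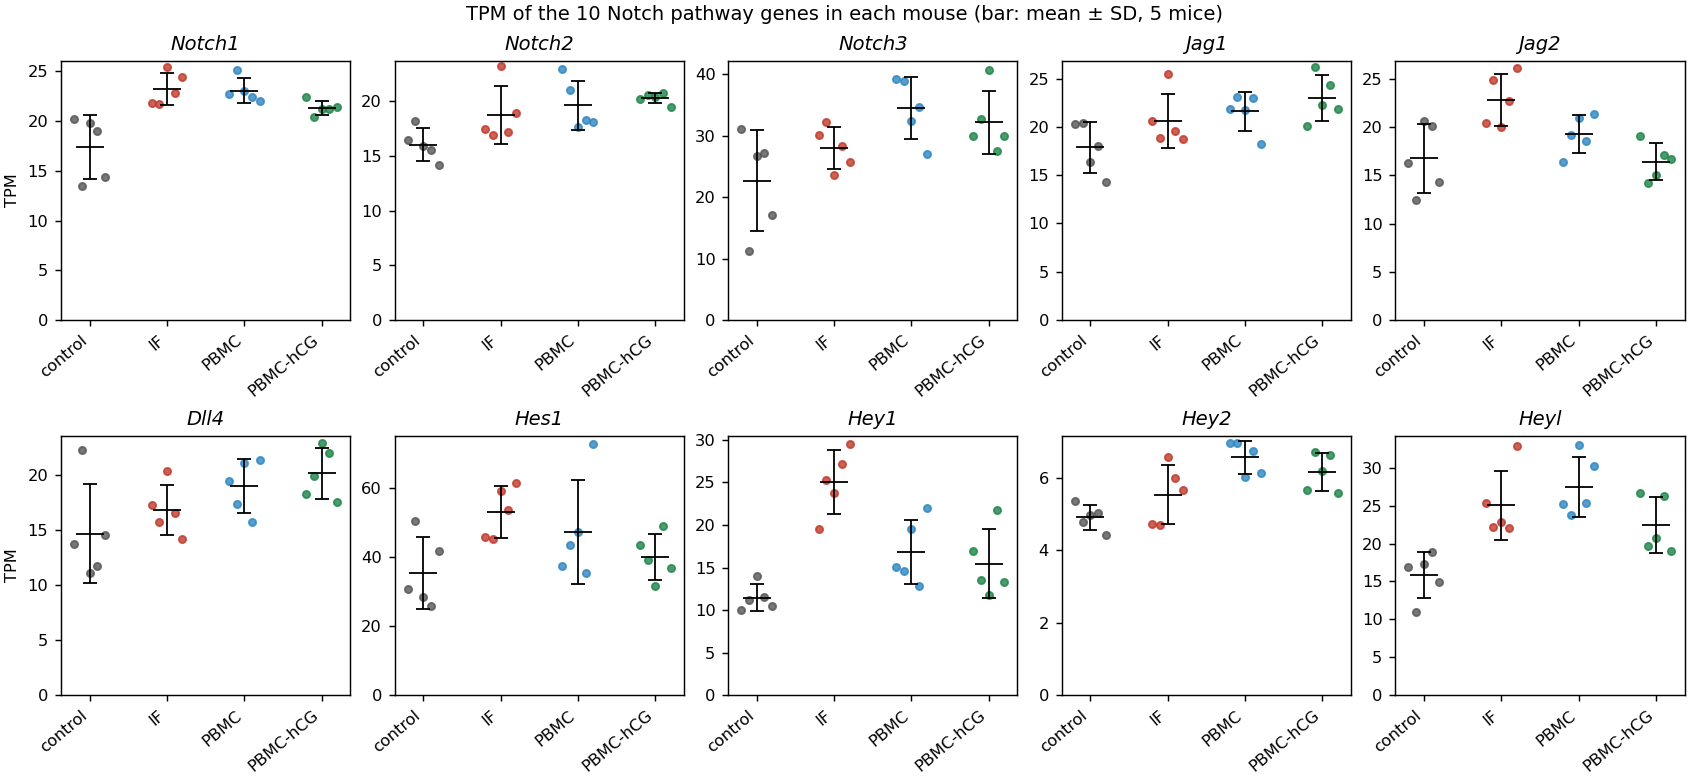
Level of each of the 10 genes in TPM (vertical axes, each from 0) in the 4 groups, with 1 point per mouse and bars for the mean ± SD of 5 mice. Hey1 lies at 19.5 to 29.5 TPM in the 5 IF mice, above all 5 control mice, and Hey2 is the lowest gene throughout.

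The comparison of IF with control mice addresses the effect of RU486. The study's methods describe no vehicle injection of control mice, so RU486, its vehicle and the injection cannot be told apart. Of the 10 genes, 5 rose and 0 fell at an adjusted p-value under 0.05 (limma), against 13.4% of all 18706 tested genes that rose and 8.53% that fell. The genes that rose were the targets Hey1, Heyl and Hes1, the ligand Jag2 and the receptor Notch1. All 10 log2 fold changes were above 0, with a median of 0.41, against a median of 0.02 over all tested genes, 53.4% of which were above 0. The count was again 5 without control replicates 2 and 5, with Dll4 in place of Jag2. Without IF replicates 3 and 5 it was 3, Hey1, Heyl and Notch1, while Jag2 was at 0.45 (adjusted p = 0.0629) and Hes1 at 0.48 (adjusted p = 0.185). Of all tested genes 4104 were called with all mice, 4565 without those control mice and 2360 without those IF mice. A log2 fold change here is the difference between group means of log2(TPM + 0.1).

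Hey1, a repressor of the HEY family, had 9.998, 11.1, 14.1, 11.5 and 10.52 TPM in the control mice and 19.5, 25.3, 23.8, 27.2 and 29.5 TPM in the IF mice. Every IF mouse was above every control mouse. The mean rose from 11.5 ± 1.57 to 25.0 ± 3.75 TPM (SD, n = 5), with a log2 fold change of 1.12 ± 0.17 (SE), 2.17-fold on that scale, and an adjusted p of 9.82e-05. Hey1 was the only member that also reached the study's own limits, a fold change of at least 2 with an unadjusted p under 0.05, which 4.03% of all tested genes reached. In the other 5 comparisons 0 members reached these limits, against 0.438% of all tested genes in PBMC versus IF, 2.31% in PBMC-hCG versus IF, 0.893% in PBMC-hCG versus PBMC, 3.34% in PBMC versus control and 4.74% in PBMC-hCG versus control. Without control replicates 2 and 5 the log2 fold change of Hey1 was 1.07, with an adjusted p of 0.000902.

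Heyl, the HEY gene best known from vascular smooth muscle, had 16.9, 10.99, 17.4, 18.9 and 15.0 TPM in control mice and 25.3, 22.2, 22.8, 22.0 and 32.9 TPM in IF mice. These groups did not overlap. The log2 fold change was 0.67 ± 0.15 (adjusted p = 0.00342), and 0.48 without control replicates 2 and 5 (adjusted p = 0.0229). Hes1, a HES repressor that restrains differentiation in many tissues, had 30.8, 50.4, 28.3, 25.8 and 41.8 TPM in control mice and 45.7, 45.1, 59.1, 53.6 and 61.5 TPM in IF mice. The control mouse at 50.4 TPM, replicate 2, lay above 2 of the IF mice. Hes1 rose by a log2 fold change of 0.62 ± 0.19 (adjusted p = 0.0284). The call was lost without any of control replicates 1, 3 and 4 or IF replicates 3, 4 and 5 (adjusted p 0.0504 to 0.0837), and without control replicates 2 and 5 the log2 fold change was 0.89 (adjusted p = 0.00229). Hey2, known for its part in arterial identity, had 4.91 ± 0.346 TPM in control and 5.53 ± 0.810 TPM in IF mice and did not pass the test (log2 fold change 0.16, adjusted p = 0.291).

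Among the receptors, Notch1 had 20.3, 13.4, 19.8, 19.0 and 14.4 TPM in control mice and 21.8, 21.7, 25.4, 22.9 and 24.4 TPM in IF mice. The groups did not overlap, but the gap between them was small next to the spread of the control mice. The log2 fold change was 0.44 ± 0.097 (adjusted p = 0.00328). Without control replicates 2 and 5 it was 0.24 (adjusted p = 0.0116). Notch2, the receptor whose log2 fold change was closest to 0, had 16.03 ± 1.48 and 18.7 ± 2.63 TPM (0.22, adjusted p = 0.0973). Notch3, the receptor of the vessel wall, had 31.1, 11.3, 26.8, 27.3 and 17.1 TPM in control mice and 30.1, 32.2, 23.6, 28.3 and 25.7 TPM in IF mice. Its log2 fold change of 0.38 (adjusted p = 0.204) rested on control replicates 2 and 5, without which it was -0.025 (adjusted p = 0.922). With those of Hey1 and Heyl, the Notch1 groups were 3 of 10 in which all IF mice were above all control mice, against 8.55% of all tested genes.

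Among the ligands, Jag2, a Serrate-type ligand, had 16.3, 12.47, 20.7, 20.1 and 14.3 TPM in control mice and 20.4, 24.9, 20.04, 22.7 and 26.2 TPM in IF mice. Of the IF mice, 3 were above the highest control mouse. Jag2 rose by a log2 fold change of 0.46 ± 0.13 (adjusted p = 0.0143), and this call was lost without control replicates 2 and 5 (0.26, adjusted p = 0.119). Jag1, the other Serrate-type ligand, had 17.9 ± 2.62 TPM in control and 20.6 ± 2.81 TPM in IF mice (log2 fold change 0.21, adjusted p = 0.187). Dll4, the Delta-type ligand of endothelium, had 13.7, 22.3, 11.05, 11.7 and 14.5 TPM in control mice and 17.2, 15.7, 20.3, 16.5 and 14.2 TPM in IF mice (log2 fold change 0.23, adjusted p = 0.305). The highest Dll4 value of these groups was that of control replicate 2. Without control replicates 2 and 5 the log2 fold change of Dll4 was 0.46 (adjusted p = 0.0131). Those of Notch2, Jag1 and Hey2, which were not called, were then 0.22, 0.17 and 0.099, and again not called.

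**Figure D2:**
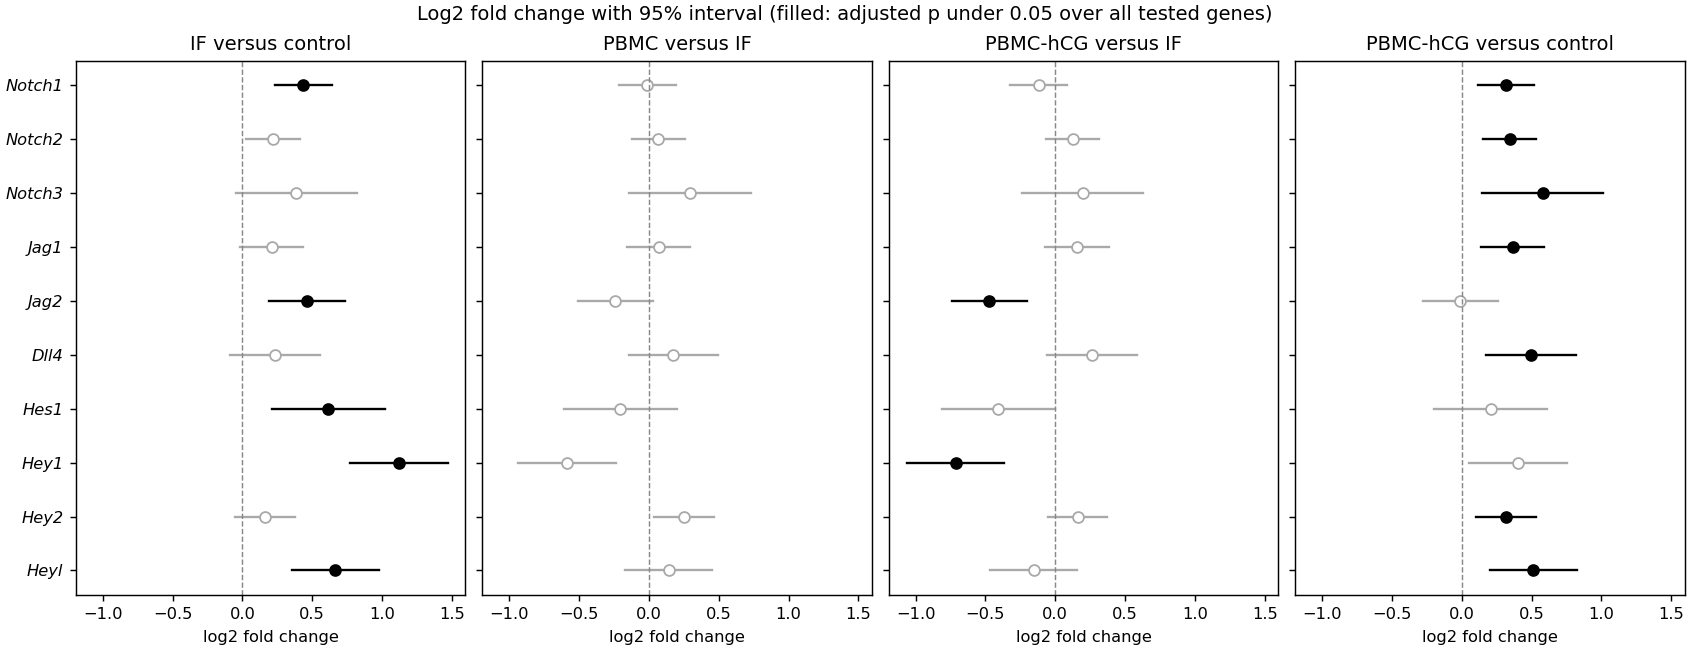
Log2 fold change of each gene (points) with its 95% interval (lines) in 4 comparisons, filled where the adjusted p over all tested genes was under 0.05. Against control all 10 genes of IF mice lie above 0, and against IF the PBMC-hCG group has filled points for Jag2 and Hey1, both below 0.

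Markers of the cells that use the pathway differed between the same groups. The 9 endothelial markers (Pecam1, Cdh5, Tek, Kdr, Tie1, Erg, Emcn, Esam and Cldn5) summed to 541 to 681 TPM in control, 748 to 835 TPM in IF, 762 to 901 TPM in PBMC and 865 to 991 TPM in PBMC-hCG mice. In IF against control, 8 of the 9 were called higher and 0 lower. The 4 arterial markers (Gja4, Gja5, Nrp1 and Efnb2, which is also on the wider pathway list) summed to 81.7 to 144 TPM in control and 120 to 158 TPM in IF mice, with 1 called higher. The 5 pericyte markers (Pdgfrb, Rgs5, Cspg4, Kcnj8 and Abcc9) summed to 355 to 506 TPM in control and 431 to 488 TPM in IF mice, and 4 were called higher and 1, Rgs5, lower. Stromal markers (Vim, Pdgfra, Dcn, Lum and Col1a1) summed to 4077 to 5823 TPM in control and 6380 to 7619 TPM in IF mice, with 2 of 5 called higher. Smooth muscle markers (Acta2, Myh11, Cnn1, Des, Actg2, Smtn and Tagln) summed to 6190 to 11453 TPM in control and 6250 to 7716 TPM in IF mice, with 1 of 7 called lower. Epithelial markers (Epcam, Cdh1, Krt8, Krt18 and Krt19) summed to 485 to 859 TPM in control and 722 to 931 TPM in IF mice, with 4 of 5 called higher. None of the markers in these lists was at 0 in any library. The markers called higher without control replicates 2 and 5 were 4 of 9 endothelial, 3 of 5 pericyte, 3 of 5 epithelial and 2 of 5 stromal ones, and 2 of 7 smooth muscle and 1 of 5 pericyte markers were called lower. Without IF replicates 3 and 5 they were 8 of 9 endothelial, 3 of 5 pericyte, 1 of 5 epithelial and 2 of 5 stromal markers higher and 0 of 7 smooth muscle markers lower. The part of these shifts in the results for the Notch genes was not tested. In whole tissue, fewer cells of a type and less RNA per cell cannot be told apart.

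**Figure D3:**
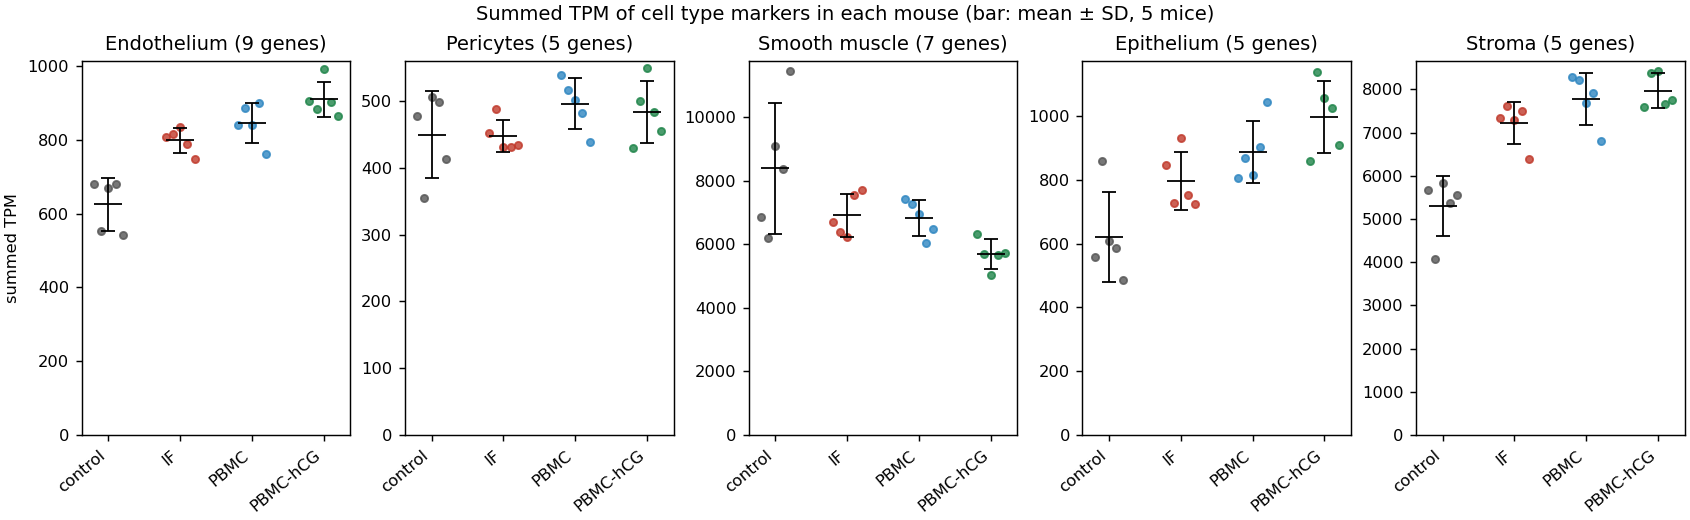
Summed TPM of the markers of 5 cell types (vertical axes, each from 0) in the 4 groups, with 1 point per mouse and bars for the mean ± SD of 5 mice. The endothelial sum is 541 to 681 TPM in control mice and 748 TPM or more in all mice given RU486, and the smooth muscle sum is lowest in PBMC-hCG mice.

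Of the other cells the tissue could hold, the 6 leukocyte markers (Ptprc, Cd3e, Cd79a, Itgam, Lyz2 and Nkg7) summed to 562 to 754 TPM in control and 540 to 774 TPM in IF mice, with 1 called higher. Ovary and oviduct markers (Ovgp1, Star and Cyp11a1) summed to 22.5 to 29.9 TPM in control and 12.7 to 27.3 TPM in IF mice, with 1 of 3 called lower. The fat markers Adipoq and Plin1 were at 0 in 10 and 12 libraries and summed to at most 55.9 TPM. The red cell markers Hbb-bs and Hba-a1 summed to 402 to 805 TPM in control and 402 to 1143 TPM in IF mice, with 0 of 2 called, and the gland markers to 1035 to 5840 TPM in IF mice, with 1 of 3 called lower.

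Of 50 other genes of the pathway, 44 were tested, since Dll3, Dlk2, Hes2, Hes3, Hes5 and Hes7 were at 0 in at least 4 libraries. In IF against control mice 16 rose and 3 fell, with a median log2 fold change of 0.15 over the 44. These are 36.4% and 6.82% of the list, against the 13.4% and 8.53% of all tested genes given above. When control replicates 2 and 5 were left out 13 rose and 5 fell, and without IF replicates 3 and 5, 9 rose and 1 fell. Of all tested genes 4565 and 2360 were called in these settings, in this order, against 4104 with all mice. Of the proteases that cut the receptor, 4 of 9 rose and 0 fell. They were Psen2, a catalytic subunit of gamma-secretase, Furin, which matures the receptor, and Adam10 and Adam17, which make the outer cut. Psen2 went from 41.0 ± 2.14 to 63.0 ± 6.70 TPM (log2 fold change 0.61, adjusted p = 1.36e-05), and Furin from 57.3 ± 2.69 to 79.3 ± 7.06 TPM (0.46, adjusted p = 8.01e-05). The gamma-secretase subunits Psenen, Ncstn, Aph1a, Aph1b and Aph1c were not called.

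In the nuclear complex and its corepressors 5 of 12 rose and 1 fell. Kat2b, an acetyltransferase recruited by the complex, went from 24.0 ± 1.15 to 39.2 ± 1.88 TPM (log2 fold change 0.70, adjusted p = 9.24e-08). The coactivators Maml1 and Maml2 rose by 0.35 and 0.48 on the log2 scale, and Rbpj was not called. The corepressors of the TLE family differed in direction, since Tle3 rose (39.7 ± 3.602 to 58.1 ± 9.59 TPM, 0.54, adjusted p = 0.0113) while Tle1 fell (38.6 ± 2.73 to 27.7 ± 4.37 TPM, -0.49, adjusted p = 0.00813). Of the ubiquitin ligases and endocytic adaptors 3 of 12 rose. The largest rise called in the wider list was that of Numbl, which encodes an adaptor related to the Notch inhibitor Numb, from 40.8 ± 2.81 to 73.6 ± 11.2 TPM (log2 fold change 0.84, adjusted p = 1.40e-05). Without control replicates 2 and 5 the values were 0.77 for Numbl, 0.71 for Kat2b and 0.62 for Psen2, all still called, while Tle3 was at 0.45 (adjusted p = 0.06). Furin (0.43) and Tle1 (-0.54) also stayed called. Without IF replicates 3 and 5 Tle3 was at 0.50 (adjusted p = 0.0549).

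The glycosyltransferases that modify the receptor moved in opposite directions. Of the Fringe genes, Lfng and Mfng rose by 0.33 and 0.41 on the log2 scale, and Rfng fell from 38.7 ± 7.11 to 29.3 ± 3.10 TPM (-0.39, adjusted p = 0.0129). Poglut1, which adds glucose to the receptor, fell from 40.1 ± 1.03 to 34.9 ± 2.96 TPM (-0.20, adjusted p = 0.0158). Notch4, the endothelial receptor outside the 10 genes, rose from 7.68 ± 0.835 to 9.52 ± 0.690 TPM (0.31, adjusted p = 0.0261), and Nrarp, a target that limits the signal, rose from 6.64 ± 1.13 to 8.94 ± 1.07 TPM (0.43, adjusted p = 0.0269). Mfng (0.41), Notch4 (0.33), Rfng (-0.59) and Poglut1 (-0.22) stayed called without control replicates 2 and 5, while Lfng was at 0.23 (adjusted p = 0.2) and Nrarp at 0.30 (adjusted p = 0.147). Without IF replicates 3 and 5, Rfng was at -0.31 (adjusted p = 0.118) and Poglut1 at -0.15 (adjusted p = 0.106).

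**Figure D4:**
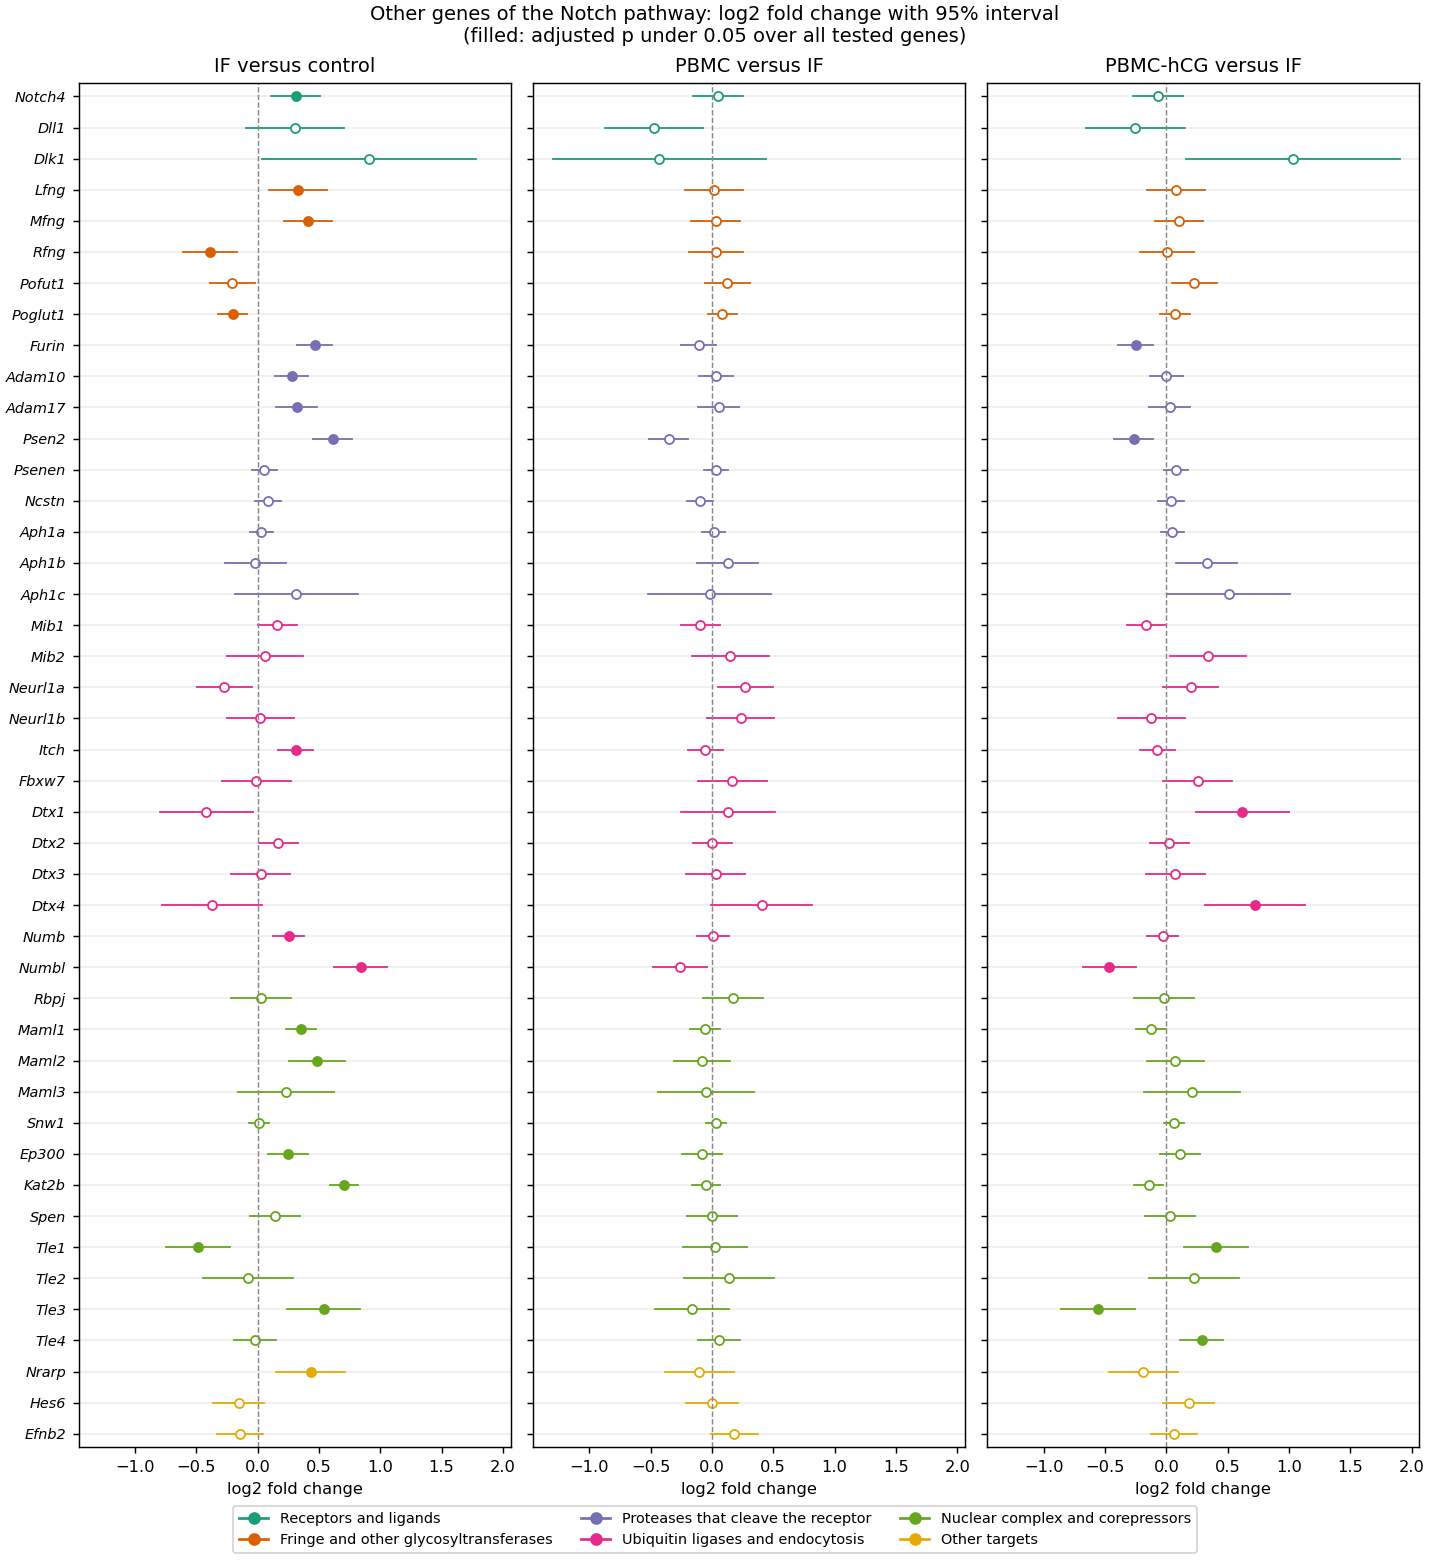
Log2 fold change (points) with 95% interval (lines) of 44 other tested genes of the pathway in 3 comparisons, coloured by role and filled where the adjusted p over all tested genes was under 0.05. Filled points number 19 for IF versus control, 0 for PBMC versus IF and 8 for PBMC-hCG versus IF.

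The comparison of PBMC with IF mice addresses cells cultured without hCG. PBMC mice also underwent anaesthesia and an injection of medium into the uterus, which IF mice did not per the study's methods, so the cells, the medium and the procedure cannot be told apart in this comparison. No member was called by limma, and 0% of all tested genes were. At an unadjusted p under 0.05 there were 2 of 10 members, against 6.79% of all tested genes. Hey1 had 15.1, 14.6, 19.5, 12.9 and 22.0 TPM in PBMC mice, and 4 of these lay below all IF mice. Its log2 fold change against IF was -0.59 (95% interval -0.94 to -0.24, unadjusted p = 0.00239, adjusted p = 0.623). Hey2 had 6.97, 6.96, 6.02, 6.73 and 6.14 TPM in PBMC mice and 4.73, 4.70, 6.57, 5.996 and 5.67 TPM in IF mice (0.25, unadjusted p = 0.0235, adjusted p = 0.701). For the receptors the 95% intervals were -0.21 to 0.19 for Notch1, -0.12 to 0.26 for Notch2 and -0.14 to 0.73 for Notch3. Of the wider list 0 of 44 were called and 4 had an unadjusted p under 0.05, with the lowest for Psen2 (63.0 ± 6.70 TPM in IF and 49.3 ± 4.20 TPM in PBMC mice, -0.35, unadjusted p = 0.000175, adjusted p = 0.273).

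The comparison of PBMC-hCG with IF mice addresses cells cultured with hCG, and here too the cells, the medium and the procedure cannot be told apart. Of the 10 genes, Hey1 and Jag2 fell and 0 rose, against 5.99% of all tested genes that fell and 7.61% that rose. The median log2 fold change of the members was 0.0026, against 0.05 over all tested genes. The 5 IF mice are the same as in the comparison with control, so a high IF group moves both comparisons and they are not independent.

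Hey1 had 17.0, 13.5, 11.8, 21.8 and 13.2 TPM in PBMC-hCG mice. Of these, 4 were below all IF mice, and the mouse at 21.8 TPM, replicate 4, was above the lowest IF mouse. The mean was 15.5 ± 4.02 TPM, against 25.0 ± 3.75 TPM in IF mice, with a log2 fold change of -0.71 ± 0.17 (adjusted p = 0.0287). Jag2 had 19.1, 14.2, 15.0, 17.1 and 16.7 TPM in PBMC-hCG mice. All 5 were below the lowest IF mouse at 20.04 TPM, a separation downward that 2.19% of all tested genes showed. The mean was 16.4 ± 1.90 TPM, against 22.8 ± 2.69 TPM in IF mice, with a log2 fold change of -0.47 ± 0.13 (adjusted p = 0.0324).

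These calls depended on single mice. With 1 mouse left out, between 0 and 2 members were called, and 0 were called without any of IF replicates 2, 4 and 5 or PBMC-hCG replicates 2, 3 and 5, while the log2 fold change of Hey1 stayed between -0.85 and -0.63 and that of Jag2 between -0.54 and -0.42. Without IF replicates 3 and 5 and PBMC-hCG replicate 4 together 0 were called, with Hey1 at -0.78 (adjusted p = 0.104) and Jag2 at -0.48 (adjusted p = 0.116). Of all tested genes 2544 were called with all mice. At most 34 were called without any of IF replicates 2, 4 and 5 or PBMC-hCG replicates 2 to 5. The number was 5061 without IF replicate 3. It was 0 without IF replicates 3 and 5 and PBMC-hCG replicate 4 together, so the loss of calls there was not particular to Hey1 and Jag2.

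Hes1 had 43.4, 39.2, 31.6, 48.9 and 36.9 TPM in PBMC-hCG mice, 4 of which were below the lowest IF mouse at 45.1 TPM, and did not pass adjustment (log2 fold change -0.41, unadjusted p = 0.0484, adjusted p = 0.14). Heyl had 26.7, 19.6, 20.7, 26.2 and 19.0 TPM in PBMC-hCG mice, and its 95% interval against IF was -0.47 to 0.16. The receptors had log2 fold changes of -0.12 for Notch1, 0.12 for Notch2 and 0.20 for Notch3, and the ligands Jag1 and Dll4 had 0.16 and 0.26, none of which was called. Of the arterial markers, Gja5 was called lower in PBMC-hCG than in IF mice (17.7 to 11.4 TPM, -0.65, adjusted p = 0.0344), and the sum of the 4 was 126 to 130 TPM against 120 to 158 TPM. Of the 9 endothelial markers 1, Emcn, was called higher, and 0 of the 5 pericyte markers were called (429 to 550 TPM in PBMC-hCG mice). Stromal markers summed to 7594 to 8436 TPM, with 1 of 5 called higher, epithelial markers to 859 to 1139 TPM, with 1 of 5 called higher, and smooth muscle markers to 5026 to 6339 TPM, with 0 of 7 called. Of the red cell markers 1 of 2 was called lower (219 to 554 TPM in PBMC-hCG mice), and of the gland, leukocyte and ovary and oviduct markers 0 were called. The part of these markers in the results for Jag2 and Hey1 was not tested.

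Of the wider list, 4 genes rose and 4 fell in PBMC-hCG against IF mice. Each is 9.09% of the 44, near the 7.61% of all tested genes that rose and the 5.99% that fell, so the genes below are given as single values and not as a result about the list. The genes that rose were the Deltex ligases Dtx4 (18.9 ± 4.10 to 30.9 ± 5.06 TPM, log2 fold change 0.72, adjusted p = 0.0321) and Dtx1 (10.2 ± 2.45 to 15.5 ± 1.82 TPM, 0.62, adjusted p = 0.0382), and the corepressors Tle1 (27.7 ± 4.37 to 36.8 ± 5.91 TPM, 0.41, adjusted p = 0.0411) and Tle4 (8.51 ± 0.695 to 10.4 ± 0.644 TPM, 0.29, adjusted p = 0.0358). Dtx4 was above the highest IF mouse in all 5 mice. Of the genes that fell, 2 were the proteases Furin and Psen2. Furin went to 66.6 ± 4.03 TPM (-0.25, adjusted p = 0.0325), Psen2 to 52.2 ± 3.75 TPM (-0.27, adjusted p = 0.0347), Numbl to 53.1 ± 7.09 TPM (-0.47, adjusted p = 0.0264) and Tle3 to 39.7 ± 8.33 TPM (-0.55, adjusted p = 0.0304). With 1 mouse left out, the number of the wider list called was between 0 and 12, with 0 in 7 of the 10 cases, without IF replicate 2, 4 or 5 or PBMC-hCG replicate 2, 3, 4 or 5. In these 7 cases at most 34 of all tested genes were called. The number of the wider list was also 0 without IF replicates 3 and 5 and PBMC-hCG replicate 4 together, where 0 of all tested genes were called.

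The comparison of PBMC-hCG with PBMC mice addresses hCG in the culture. By limma 0 of the 10 genes were called, against 0.0107% of all tested genes, and 0 had an unadjusted p under 0.05, against 16.2%. The log2 fold change farthest from 0 was that of Heyl (-0.30, 95% interval -0.61 to 0.02, adjusted p = 0.321). For Hey1 the interval was -0.48 to 0.22 and for Jag2 -0.50 to 0.04, so differences of this size are not excluded by these 10 mice. Of the wider list 0 of 44 were called, and 10 had an unadjusted p under 0.05.

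Against control mice, the groups that received cells and RU486 had higher levels of several members. In both comparisons RU486 with its vehicle and injection, the cells, the medium and the procedure cannot be told apart. In PBMC mice 6 of 10 were called higher and 0 lower, against 12.8% of all tested genes that were higher and 6.7% that were lower. They were Heyl (log2 fold change 0.81, adjusted p = 0.000791), Notch3 (0.68, adjusted p = 0.0268), Hey1 (0.53, adjusted p = 0.0308), Notch1 (0.43, adjusted p = 0.00424), Hey2 (0.41, adjusted p = 0.00769) and Notch2 (0.29, adjusted p = 0.0333). All PBMC mice were above all control mice for Notch1, Hey2 and Heyl, a separation that 8.65% of all tested genes showed. Heyl, for example, had 25.2, 23.8, 33.1, 25.3 and 30.3 TPM in PBMC mice. Without control replicates 2 and 5 the count was again 6, but these were Notch1, Notch2, Dll4, Hes1, Hey2 and Heyl. The log2 fold change of Notch3 was then 0.27 (adjusted p = 0.174). Without control replicate 5 alone 3 members were called (Notch1, Hey2 and Heyl), and without control replicate 2 alone 9 were. Of all tested genes 3653 were called with all mice and 3874 without both of these control mice. The number was 3084 without replicate 5 alone and 4628 without replicate 2 alone. In this comparison 8 of 9 endothelial, 4 of 5 pericyte, 4 of 5 epithelial and 3 of 5 stromal markers were called higher and 0 of 7 smooth muscle markers lower, and without control replicates 2 and 5 these were 8, 4, 5, 3 and 3. Without these control mice 1 of 5 pericyte markers was also called lower, against 0 with all mice. Their part in the calls was not tested.

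In PBMC-hCG mice 7 of 10 were called higher than in control and 0 lower, against 20.2% of all tested genes that were higher and 11.6% that were lower. They were Notch3 (log2 fold change 0.58, adjusted p = 0.0391), Heyl (0.51, adjusted p = 0.0139), Dll4 (0.50, adjusted p = 0.0188), Jag1 (0.36, adjusted p = 0.0156), Notch2 (0.34, adjusted p = 0.00823), Hey2 (0.32, adjusted p = 0.0229) and Notch1 (0.32, adjusted p = 0.0185). The values of Notch2 were 20.2, 20.5, 20.4, 20.8 and 19.5 TPM, all above the control mice at 16.4, 18.2, 15.9, 15.5 and 14.1 TPM. Such a separation was seen in 4 members, Notch1, Notch2, Hey2 and Heyl, and in 13.2% of all tested genes. The 3 genes not called were Hey1 (0.40, 95% interval 0.05 to 0.75, adjusted p = 0.0717), Hes1 (0.21, -0.20 to 0.61, adjusted p = 0.442) and Jag2 (-0.01, -0.28 to 0.26, adjusted p = 0.961). Without control replicates 2 and 5 the calls were 3, Notch2 (0.34), Jag1 (0.33) and Dll4 (0.72), and Notch1 had 0.12 (adjusted p = 0.168). Notch3, the largest of the 7 with all mice, then had 0.17, its lowest value over all alternatives, and was not called. Hes1 then had 0.49 and Jag2 lay further below 0 than with all mice, and neither was called. Over all alternatives the value of Jag2 went down to -0.22. Without control replicate 5 alone the calls were also 3, Notch2, Dll4 and Heyl. Of all tested genes 5941 were called with all mice, 6336 without control replicates 2 and 5 and 4756 without control replicate 5 alone. In this comparison 9 of 9 endothelial, 4 of 5 pericyte, 4 of 5 epithelial and 3 of 5 stromal markers were called higher and 5 of 7 smooth muscle markers lower, and without control replicates 2 and 5 these were 9, 4, 5, 3 and 3. Of the 4 arterial markers 1 was called higher and 0 lower, and without these control mice 1 higher and 2 lower. Without them 1 of 5 pericyte and 1 of 5 stromal markers were also called lower, against 0 with all mice. Their part in the calls was not tested.

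The group means of the members thus took different courses over the 4 groups, given here as a description. The control means depend in part on control replicates 2 and 5. These mice held the lowest control values of Jag2 (12.5 and 14.3 TPM). They also held the highest control values of Hes1 (50.4 and 41.8 TPM) and Dll4 (22.3 and 14.5 TPM). Jag2 was at 16.8 ± 3.57 TPM in control, 22.8 ± 2.69 in IF, 19.3 ± 2.003 in PBMC and 16.4 ± 1.90 in PBMC-hCG mice. Hes1 was at 35.4 ± 10.3, 53.0 ± 7.50, 47.2 ± 15.0 and 40.004 ± 6.57 TPM in the same order, and its PBMC group held the highest value of all mice, 72.6 TPM. For Jag2, Hes1 and Hey1 the IF group had the highest mean. Dll4 was at 14.6 ± 4.49, 16.8 ± 2.27, 19.0 ± 2.42 and 20.1 ± 2.30 TPM, and Jag1 at 17.9 ± 2.62, 20.6 ± 2.81, 21.6 ± 1.98 and 22.9 ± 2.38 TPM. For Dll4, Jag1 and Notch2 the PBMC-hCG group had the highest mean. Notch3, Hey2 and Heyl had their highest mean in PBMC mice, at 34.4 ± 5.05, 6.56 ± 0.454 and 27.5 ± 3.96 TPM. Notch1 had 23.2 ± 1.64 TPM in IF and 23.1 ± 1.23 TPM in PBMC mice, a difference well within the spread.

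Genes whose log2 values followed each member most closely over the 20 mice were found among 15761 genes with a mean of at least 1 TPM. These correlations are a description, since the mice share 4 treatments and any shift in cell makeup. For Jag2 they were Nos3 (Pearson r = 0.90, Spearman rho = 0.89), Selp (0.89, 0.79) and Gja5 (0.89, 0.90), which encode endothelial nitric oxide synthase, P-selectin and a gap junction protein of arteries. For Hey1 they were Eva1a (0.94, 0.90), Krt81 (0.92, 0.91) and Stat5a (0.92, 0.88), and for Heyl they were Ece1 (0.94, 0.87), Id3 (0.93, 0.93) and Plekho2 (0.93, 0.87). The gene closest to Notch3 was Il6st (0.95, 0.87), to Notch2 Ubr2 (0.93, 0.89), to Notch1 Trak1 (0.91, 0.81) and to Jag1 Ncoa2 (0.93, 0.89). The gene closest to Hes1 was Dnajb9 (0.90, 0.94), to Hey2 Lrig2 (0.89, 0.88) and to Dll4 Klf6 (0.85, 0.82). Among the members, the pairs with the highest r were Notch2 with Jag1 (0.82), Notch1 with Heyl (0.81), Notch2 with Hey2 (0.79) and Jag2 with Hey1 (0.77). After the group means were removed these were 0.66, 0.52, 0.65 and 0.58. Other pairs went in opposite directions, with the lowest r for Jag2 with Dll4 (-0.35) and Notch3 with Hes1 (-0.30). With the group means removed these were -0.67 and -0.84, and the value of Notch3 with Hes1 was the farthest from 0 of all pairs.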

How the data were processed

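Uterine mRNA of 20 mice, 1 library each, was sequenced. Per the labels and methods, the authors made stranded libraries, trimmed reads with Trimmomatic, aligned them to the mm10 build (GRCm38) using HISAT2, and used StringTie for transcript assembly. The authors deposited TPM per gene, values that are scaled to a fixed total, so depth is unknown and a gene that takes a larger share lowers the others. Versions are not given in the sources used here. Groups and replicate numbers came from the sample titles, and nothing beyond them says that mice were handled separately.

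Values were analysed as log2(TPM + 0.1) for the 18706 genes above 0 TPM in all 20 libraries. The 4 groups were fitted together with limma 3.58.1 (R 4.3.3, data.table version 1.17.8) allowing for a variance trend. The p-values of each comparison were adjusted over all tested genes after Benjamini and Hochberg. A gene was called at an adjusted p under 0.05, tests were two-sided, and intervals are 95%. The exact test on read counts used in the study cannot be applied to TPM. The code was tested on simulated data. Sequences were handled with pandas 2.3.3 in Python 3.11.15, and figures drawn with matplotlib 3.10.9.

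The members, the wider list of 50 genes and the marker lists were chosen with earlier results of these data known, so list counts are descriptions. All members were named. From the wider list the 4 largest rises and 4 largest falls called in IF versus control and in PBMC-hCG versus IF, with a mean of at least 1 TPM, were named, together with other genes of each role picked after their values were seen, among them Furin, Adam10, Adam17, Maml1, Maml2, Lfng, Mfng, Notch4 and Nrarp. Some genes of the lists are not reported here. For each member the 3 genes with the highest Pearson r were found. Alternatives were other pseudocounts, filters, scalings, weights, fits and thresholds, a replicate block, and mice left out.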

Additional observations from a re-analysis of the deposited data

Results flagged for a closer look

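In each of the 10 genes and 4 groups, the highest or lowest of 5 mice was compared with its nearest neighbour, relative to the range of the group. Of the 40 sets of 5, 2 held a mouse beyond Dixon's 95% critical value of 0.71, and chance gives about 1 in 20. Both concern Jag1. IF replicate 3 had 25.5 TPM, the highest of its group, with the next mouse at 20.6 TPM. PBMC replicate 5 had 18.2 TPM, the lowest of its group, with the next mouse at 21.7 TPM.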

How the results depend on the processing

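Of all 10 members in IF versus control, 5 were called in the main analysis, and Hey1, Heyl and Notch1 remained called in all 22 alternatives that keep the threshold. By the study's threshold (unadjusted p under 0.05 and a fold change of at least 2) the count was 1 (Hey1), without IF replicates 3 and 5 it was 3, and with single mice left out 4 to 7. Without IF replicates 3 and 5, 2360 of all tested genes were called, against 4104 in the main analysis. In PBMC-hCG versus IF the count of 2 became 0 by the study's threshold, 1 without a filter, 7 with array weights (4 higher, 3 lower), 0 without IF replicates 3 and 5 and PBMC-hCG replicate 4 together and 0 to 2 with single mice left out. Of all 18706 tested genes 2544 were called in the main analysis, 8078 with array weights and 0 without these 3 mice together. Without a filter 812 of 30695 genes were called. In PBMC versus control the count of 6 became 0 by the study's threshold and 3 to 9 with mice left out, quantile normalization and median-ratio scaling each ended the calls of Notch2 and Hey1 (count 4), and a fit of the 2 groups alone ended those of Notch2 and Notch3 (count 4). In PBMC-hCG versus control the count of 7 became 0 by the study's threshold, 4 with median-ratio scaling, 4 in a fit of the 2 groups alone, 3 without control replicates 2 and 5 together and 3 to 7 with mice left out. In the wider list the count of 19 for IF versus control became 0 by the study's threshold, 10 in a fit of the 2 groups alone and 10 without IF replicates 3 and 5. Of all tested genes 2473 and 2360 were called in the last 2 of these settings, against 4104 in the main analysis. The count of 8 for PBMC-hCG versus IF became 1, 3 and 17 by the study's threshold, without a filter and with array weights, 0 without the 3 mice named above, and 0 to 12 with single mice left out. As given above, 8078 of all tested genes were called with array weights and 0 without the 3 mice. The causes were not tested. Of 10 fits with 1 mouse left out, PBMC versus control kept the calls of Hey1 in 5, Notch2 in 5 and Notch3 in 6, and PBMC-hCG versus control kept those of Notch3 in 5, Dll4 in 7, Hey2 in 7, Notch1 in 9 and Jag1 in 9. With the replicate block the counts of members stayed at 5, 0, 2, 0, 6 and 7 and changed no call. In no comparison did all 5 same-numbered pairs deviate together at r over 0.1 (r -0.25 to 0.46), but 3 of 5 did in IF versus control. Replicate 5 had r of 0.40 in IF versus control, 0.46 in PBMC versus IF and 0.27 in PBMC versus control. For replicate 5 of PBMC-hCG the r was -0.059 with control, -0.090 with IF and -0.083 with PBMC. Whether the numbers mark pairs or a shared batch is unknown. Hes1 in IF versus control lost its call with median-ratio scaling (adjusted p = 0.0536), and Jag2 in a fit of the 2 groups alone (0.0629). The sign changed for 3 members. Notch3 in IF versus control was -0.025 without control replicates 2 and 5 together. Notch1 in PBMC versus IF was 0.058 with array weights, 0.058 without IF replicates 3 and 5 and -0.042 to 0.023 with single mice left out. Jag2 in PBMC-hCG versus control was -0.11 to 0.072 with single mice left out, and as low as -0.22 over all alternatives. No scaling moved the median of all genes by over 0.1 (log2).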
